A study of Rattus norvegicus with 15 samples.

Results

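Messenger RNA levels of 4 genes of the heat shock and endoplasmic reticulum (ER) stress responses were followed in brain tissue of rats with intracerebral hemorrhage. The genes were chosen by Ensembl ID: Hspb1 (ENSRNOG00000023546), Hspa5 (ENSRNOG00000018294), Atf3 (ENSRNOG00000003745) and Ddit3 (ENSRNOG00000006789). All 4 were among the 15094 genes of the deposited count table. The table gives IDs only, and the symbols are those paired with the IDs when the genes were chosen.

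Sprague-Dawley rats were used, and brain tissue was taken 72 h after modelling, with basal ganglia given as the cell source. The sham group (Sham) had a sham operation, the ICH group had intracerebral hemorrhage (bleeding into the brain), and the ICH_MA group received mithramycin A after the hemorrhage. Mithramycin A is a DNA-binding compound that prefers GC-rich sequence and is known to displace the transcription factor Sp1. The design named 5 rats per group, and 11 of the 15 labelled samples had a column in the table: 5 of Sham, 3 of ICH (numbered 1, 2 and 5) and 3 of ICH_MA (numbered 1, 2 and 3). The remaining 4 were not analysed here. The sources used here do not give the dose, route or timing of the drug, any vehicle for the other groups, or the age and sex of the rats.

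The heat shock response is driven by heat shock factors, which bind heat shock elements in DNA when unfolded proteins accumulate in the cytosol. Hspb1 is a small heat shock protein (HSP27) that holds unfolding proteins and protects actin filaments, and in brain it is known as a gene of stressed astrocytes and vessels. The ER stress response, or unfolded protein response, works through the sensors PERK, IRE1 and ATF6. Hspa5 encodes BiP (GRP78), the main chaperone of the ER lumen, which is transcribed through ER stress elements when ATF6 or XBP1 is active. The PERK branch translates ATF4, which switches on Atf3 and Ddit3. Atf3 is a transcription factor of the ATF and CREB family that is also induced by injury and inflammation outside ER stress. Ddit3 encodes CHOP, a transcription factor of the C/EBP family associated with cell death under lasting ER stress.

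Upstream sequences were available for Hspb1, Hspa5 and Ddit3 and not for Atf3, and they are shown because both responses act through DNA elements near the start of their target genes. Each covers the 250 bases before the annotated transcript start on the gene's own strand, 5′ to 3′, from RefSeq on build GRCr8. Capitals mark every exact match, on either strand, to the motifs searched. The Hspb1 window lies at chr12:26432302-26432551 on the minus strand, Hspa5 at chr3:38452766-38453015 on the plus strand, and Ddit3 at chr7:65001445-65001694 on the plus strand.
Hspb1: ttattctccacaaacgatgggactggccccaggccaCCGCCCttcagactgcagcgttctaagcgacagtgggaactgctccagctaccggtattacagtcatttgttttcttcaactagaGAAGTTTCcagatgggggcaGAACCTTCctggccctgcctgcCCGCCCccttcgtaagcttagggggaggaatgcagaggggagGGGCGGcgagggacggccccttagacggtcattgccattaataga
Hspa5: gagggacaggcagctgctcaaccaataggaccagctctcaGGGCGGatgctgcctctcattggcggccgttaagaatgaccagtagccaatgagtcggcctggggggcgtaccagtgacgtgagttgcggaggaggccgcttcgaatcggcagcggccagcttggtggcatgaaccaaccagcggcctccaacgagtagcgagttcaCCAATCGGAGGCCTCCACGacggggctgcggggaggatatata
Ddit3: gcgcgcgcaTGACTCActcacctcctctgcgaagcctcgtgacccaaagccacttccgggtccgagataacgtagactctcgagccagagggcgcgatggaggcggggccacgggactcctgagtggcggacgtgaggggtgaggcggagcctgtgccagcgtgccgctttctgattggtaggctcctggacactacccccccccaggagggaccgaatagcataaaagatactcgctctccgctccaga

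The Hspb1 window held 2 heat shock elements of the form GAANNTTC, at bases -129 to -122 and -109 to -102 from the start, and 3 GC boxes (GGGCGG, the core that Sp1 binds). In the Hspa5 window lay 1 ER stress element, CCAAT and CCACG with 9 bases between them, at bases -43 to -25, and 1 GC box at -210 to -205. The Ddit3 window held 1 AP-1 site (TGANTCA) at -241 to -235 and no GC box. Over the 33469 RefSeq windows of the same length, 7.23% held GAANNTTC, 0.0657% (22 windows) the ER stress element, 30.5% a GC box and 6.34% the AP-1 site. The other motifs searched were TTCNNGAA (7.48% of windows), the cyclic AMP response element TGACGTCA (1.59%), the C/EBP-ATF response element TGATGCAAT (0.161%) and the TATA box TATAAA (12.9%), and their letters were not in these 3 windows. None of the matches overlapped another. GC content was 56.8% in the Hspb1 window, 61.6% in Hspa5 and 63.6% in Ddit3, against a median of 51.2% over all windows. Only exact matches were counted, so a sequence that differs from a motif by any letter is not marked. For example, the Ddit3 window holds CCAAT and GCACG with 9 bases between them on the opposite strand, close to the ER stress element. A motif not found here is thus absent in its exact letters only. A match describes the letters only and shows no binding.

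**Figure D1:**
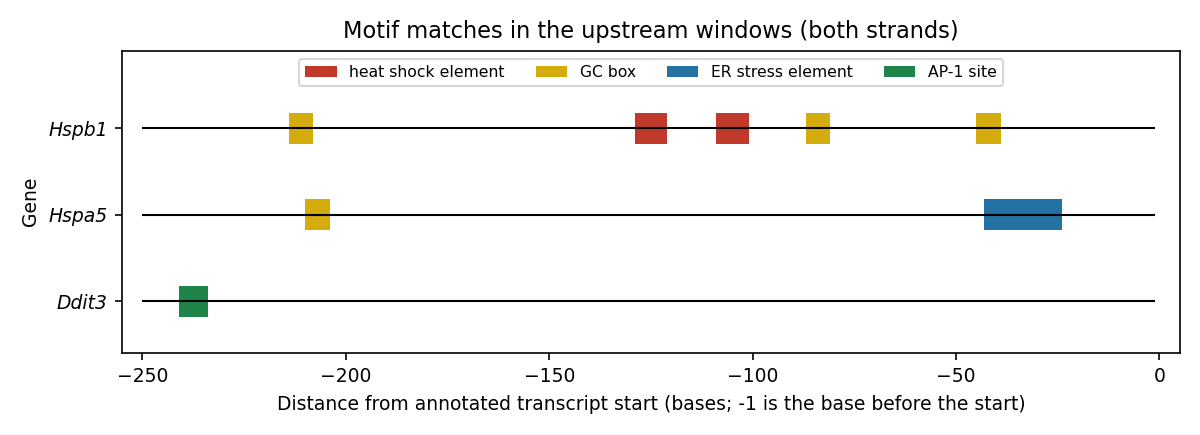
Positions of exact motif matches in the 250 bases upstream of 3 of the genes; the x axis is the distance in bases from the annotated transcript start, and each coloured block is 1 exact match on either strand. The Hspb1 window shows 2 heat shock elements and 3 GC boxes, Hspa5 an ER stress element near the start and 1 GC box, and Ddit3 1 AP-1 site.

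Libraries held 56393423 to 67733469 counts, with overlapping ranges in the 3 groups. Levels are given as CPM, counts relative to library totals scaled by TMM (trimmed mean of M values), and tests used edgeR's quasi-likelihood F test over all 14963 genes that passed the filter on low counts, with Benjamini-Hochberg adjusted p under 0.05 as the call. All 4 genes passed that filter. A library that touched these results was ICH replicate 5: without it the number of genes called between ICH_MA and ICH went from 0 to 1137, so results that turn on it are given both ways. That replicates were separate rats is stated by the design text alone. The table is of bulk tissue, so more cells of a type and more RNA per cell cannot be told apart. Markers of cell types, the striatal identity of the tissue and the other genes of these pathways could not be checked, since the IDs could not be paired with symbols.

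The first comparison asked which of the 4 genes responded to hemorrhage. Hspb1 and Atf3 rose, by 11.6-fold and 4.63-fold, while the ER chaperone Hspa5 and the CHOP gene Ddit3 did not pass the test, at 1.06-fold and 1.09-fold of Sham. Thus 2 of 4 genes were called, both upward, where 24.5% of all genes tested were called and 15% were called upward. The groups did not overlap in the same 2 genes, against 26% of all genes. The median log2 fold change of the 4 was 1.17, against 0.00 over all genes tested. It falls in the gap between Ddit3 at 0.12 and Atf3 at 2.21, so it describes no single gene and no rise shared by the 4.

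Hspb1 was at 4.56, 5.86, 5.14, 6.04 and 5.25 CPM in Sham replicates 1 to 5. In ICH it was at 35.7, 136 and 15.5 CPM in replicates 1, 2 and 5. Every ICH library was above every Sham library, and the ICH libraries differed from each other by up to 8.72 times. ICH replicate 2 stood highest, with 8160 counts, and replicate 5 lowest, with 1027.

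Group means of Hspb1 were 5.37 ± 0.594 CPM in Sham (SD, n = 5) and 62.3 ± 64.2 CPM in ICH (SD, n = 3). The log2 fold change was 3.53 ± 0.51 (SE), with a 95% interval of 2.43 to 4.64 (edgeR adjusted p = 0.000888). A larger rise was fitted for 77 of the 14963 genes. The interval uses a spread estimate common to all groups, while the spread of Hspb1 lay in ICH, so it can be too narrow for ICH. Fitted with Sham and ICH only, edgeR's adjusted p was 0.00407. With limma-voom the log2 fold change was 2.96 (adjusted p = 0.0196). The size rests on ICH replicate 2: without it the log2 fold change was 2.25, below that interval (edgeR adjusted p = 0.00139). The call was kept without any single library, at log2 fold changes of 2.25 to 3.99.

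Atf3, at the lowest counts of the 4 genes, was at 0.717, 0.534, 1.03, 1.54 and 1.79 CPM in Sham replicates 1 to 5, from 34 to 100 counts. In ICH replicates 1, 2 and 5 it was at 6.53, 5.65 and 3.35 CPM. The groups did not overlap, and replicate 5 was again the lowest of the ICH libraries. The Sham libraries varied by 47.5% (coefficient of variation), where counting alone gives 12.1% at their mean count.

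Means of Atf3 were 1.12 ± 0.532 CPM in Sham (SD, n = 5) and 5.17 ± 1.64 CPM in ICH (SD, n = 3). This gave a log2 fold change of 2.21 ± 0.36 (SE), with a 95% interval of 1.41 to 3.01 (edgeR adjusted p = 0.0018). The value stayed between 2.01 and 2.45 with any single library left out.

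Ddit3 was at 14.0, 16.7, 15.6, 15.2 and 13.6 CPM in Sham replicates 1 to 5. In ICH replicates 1, 2 and 5 it was at 16.3, 16.3 and 16.5 CPM. The ICH values lay inside the Sham range and differed by 0.757% (coefficient of variation), less than the 3.14% that counting alone gives. The log2 fold change was 0.12 ± 0.09 (SE; edgeR adjusted p = 0.333), and its 95% interval ran from 0.95-fold to 1.25-fold.

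Hspa5 was at 278, 257, 290, 317 and 305 CPM in Sham replicates 1 to 5. In ICH replicates 1, 2 and 5 it was at 298, 344 and 280 CPM. The groups overlapped, with ICH replicate 2 above all Sham libraries. Its log2 fold change was 0.09 ± 0.09 (SE; edgeR adjusted p = 0.516), and its 95% interval ran from 0.927-fold to 1.22-fold.

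**Figure D2:**
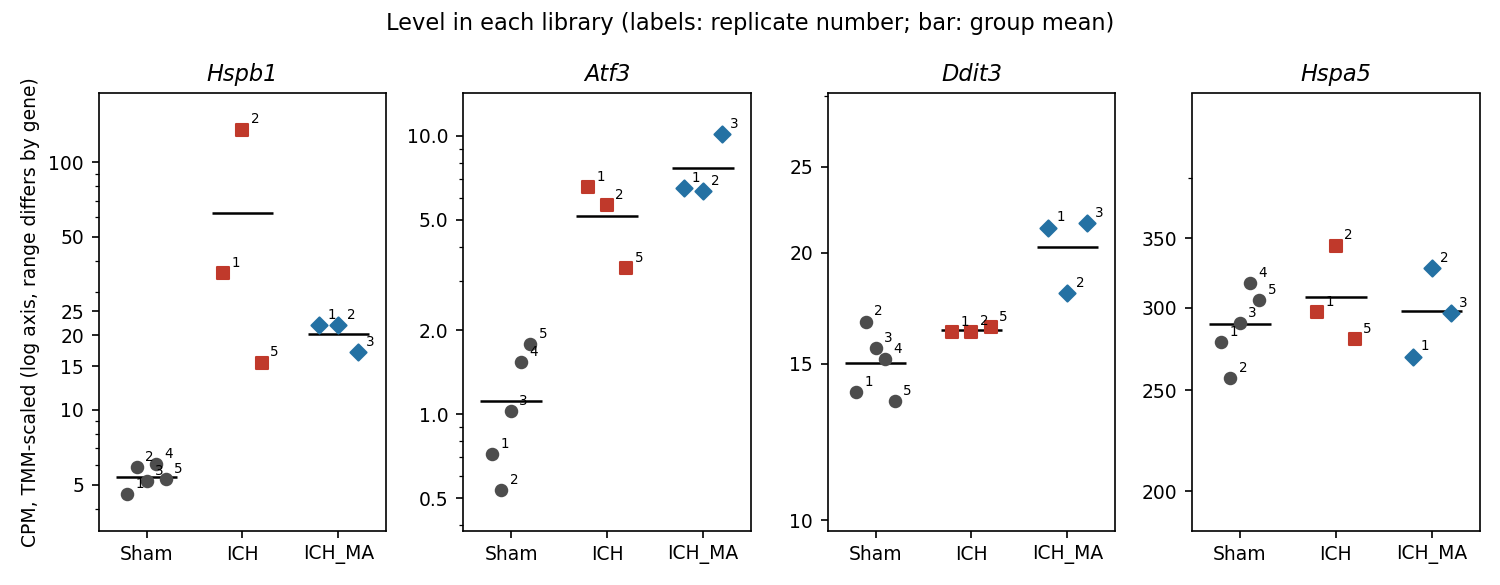
Level of each gene in CPM (log axis, with its own range per gene) in the 5 Sham, 3 ICH and 3 ICH_MA libraries; points are single libraries labelled with their replicate number and bars are group means. Hspb1 and Atf3 lie higher in every ICH and ICH_MA library than in any Sham library, Ddit3 does so in the ICH_MA libraries only, and Hspa5 overlaps in all groups.

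The second comparison set rats treated with mithramycin A after hemorrhage against Sham. Atf3 rose 6.86-fold, Hspb1 3.79-fold and Ddit3 1.35-fold, and Hspa5 stood at 1.03-fold without passing the test. These are 3 of 4 genes, all upward, where 6.67% of the genes tested were called and 5% upward. The same 3 genes did not overlap with Sham, against 19% of all genes. The median log2 fold change was 1.18 in the 4 genes and 0.00 over all genes tested. That median falls between Ddit3 at 0.44 and Hspb1 at 1.92 and describes no single gene. The Sham libraries are the same as in the comparison of ICH with Sham.

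Atf3 was at 6.51, 6.35 and 10.1 CPM in ICH_MA replicates 1, 2 and 3. All 3 libraries were above Sham, and replicate 3 was the highest of all 11 libraries. The mean of 7.67 ± 2.15 CPM (SD, n = 3) gave a log2 fold change of 2.78 ± 0.36 (SE), with a 95% interval of 1.98 to 3.58 (edgeR adjusted p = 0.00195). It was among the largest rises of this comparison, with 53 genes above it, and was called in every alternative run.

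Hspb1 was at 22.0, 21.9 and 17.1 CPM in ICH_MA replicates 1, 2 and 3. These values lay close together and above all Sham libraries. The mean was 20.4 ± 2.8 CPM (SD, n = 3), with a log2 fold change of 1.92 ± 0.50 (SE; edgeR adjusted p = 0.0426). This call lay near the threshold: it was lost without any single Sham or ICH_MA library, at adjusted p of 0.0627 to 0.135, while the log2 fold change stayed between 1.86 and 2.03. Without ICH replicate 2, whose spread enters the estimate common to all groups, edgeR's adjusted p was 0.00166. Fitted with Sham and ICH_MA only, edgeR's adjusted p was 5.22e-05. The call was lost with limma-voom (adjusted p = 0.209) and in edgeR with the replicate number as a block (adjusted p = 0.201).

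Ddit3 was at 21.4, 18.0 and 21.6 CPM in ICH_MA replicates 1, 2 and 3. Each was above the highest Sham library (16.7 CPM). The mean was 20.3 ± 1.99 CPM (SD, n = 3) against 15.0 ± 1.26 CPM in Sham (SD, n = 5). The log2 fold change was 0.44 ± 0.09 (SE), with a 95% interval of 0.24 to 0.63 (edgeR adjusted p = 0.0156). Without ICH_MA replicate 1 or replicate 3 the call was lost, at adjusted p of 0.0629 and 0.068 and log2 fold changes of 0.40 and 0.39.

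Hspa5 was at 269, 327 and 296 CPM in ICH_MA replicates 1, 2 and 3. The values overlapped the Sham range of 257 to 317 CPM, with replicate 2 above it. Its log2 fold change was 0.04 ± 0.09 (SE; edgeR adjusted p = 0.838), and its 95% interval ran from 0.898-fold to 1.18-fold.

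**Figure D3:**
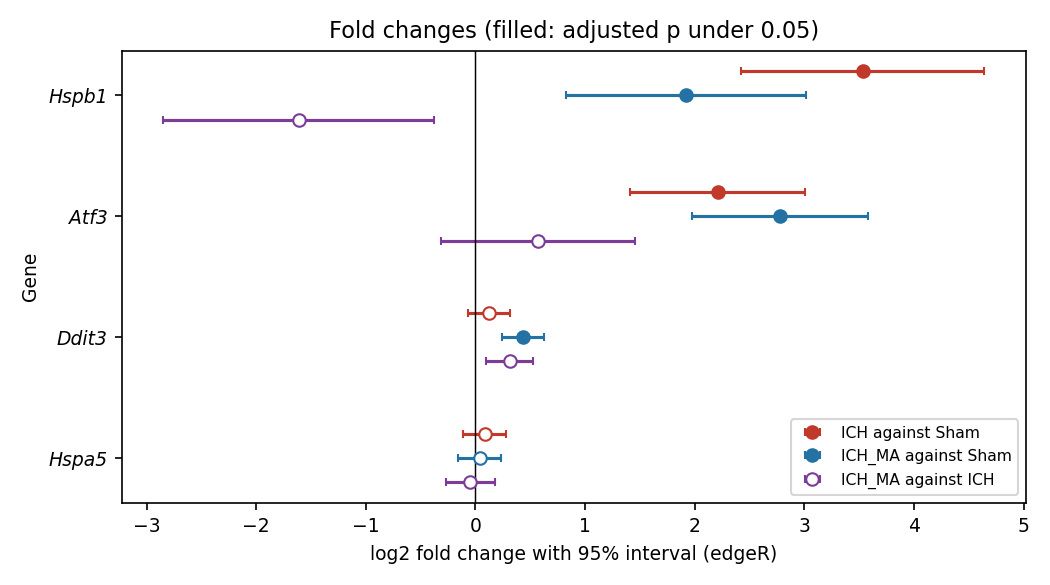
Log2 fold changes with 95% intervals from edgeR for each gene in the 3 comparisons; filled points have an adjusted p under 0.05. Hspb1 and Atf3 are filled against Sham in both ICH and ICH_MA, Ddit3 in ICH_MA against Sham alone, and no point is filled for ICH_MA against ICH.

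The third comparison asked what the drug changed after hemorrhage. None of the 4 genes passed between ICH_MA and ICH with edgeR (0 of 4, where 0% of all genes tested passed). At an unadjusted p under 0.05 there were 2 of the 4, Hspb1 and Ddit3, and 2318 of all 14963 genes. DESeq2 and limma-voom called none of the 4 either, while over all genes DESeq2 called 477 and limma-voom 0. The ICH_MA and ICH groups did not overlap in 1 of the 4 genes, Ddit3, against 17% of all genes.

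Ddit3 was higher in each ICH_MA library, at 18.0 CPM and above, than in each ICH library, at 16.5 CPM and below. The fitted difference was 0.31 ± 0.10 (SE) on the log2 scale, or 1.24-fold with a 95% interval of 1.07-fold to 1.44-fold (edgeR unadjusted p = 0.00863, adjusted p = 0.2). Over the alternatives the log2 difference lay between 0.26 and 0.39 and the adjusted p between 0.0697 and 0.515, so it did not pass in any of them.

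Hspb1 had a lower mean in ICH_MA, 20.4 CPM against 62.3 CPM, but the groups overlapped because ICH replicate 5, at 15.5 CPM, was below all 3 ICH_MA libraries. The log2 fold change was -1.61 ± 0.56 (SE), with a 95% interval of -2.85 to -0.38 (edgeR adjusted p = 0.229). This value turned on 2 libraries. Without ICH replicate 5 it was -2.07 and passed (edgeR adjusted p = 0.0128). Without ICH replicate 2 it was -0.33 (edgeR adjusted p = 0.631). The interval above also uses the spread estimate common to all groups. Fitted with ICH and ICH_MA only, the log2 fold change was -1.60 (edgeR unadjusted p = 0.0544, adjusted p = 0.44). With limma-voom it was -1.05 (adjusted p = 0.458).

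Atf3 had a higher mean in ICH_MA than in ICH, with overlapping libraries. The log2 fold change of 0.57 ± 0.40 (SE), with a 95% interval of -0.31 to 1.45 did not pass (edgeR adjusted p = 0.528). Hspa5 had a log2 fold change of -0.05 ± 0.10 (SE; edgeR adjusted p = 0.868), and its 95% interval ran from 0.832-fold to 1.13-fold.

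**Figure D4:**
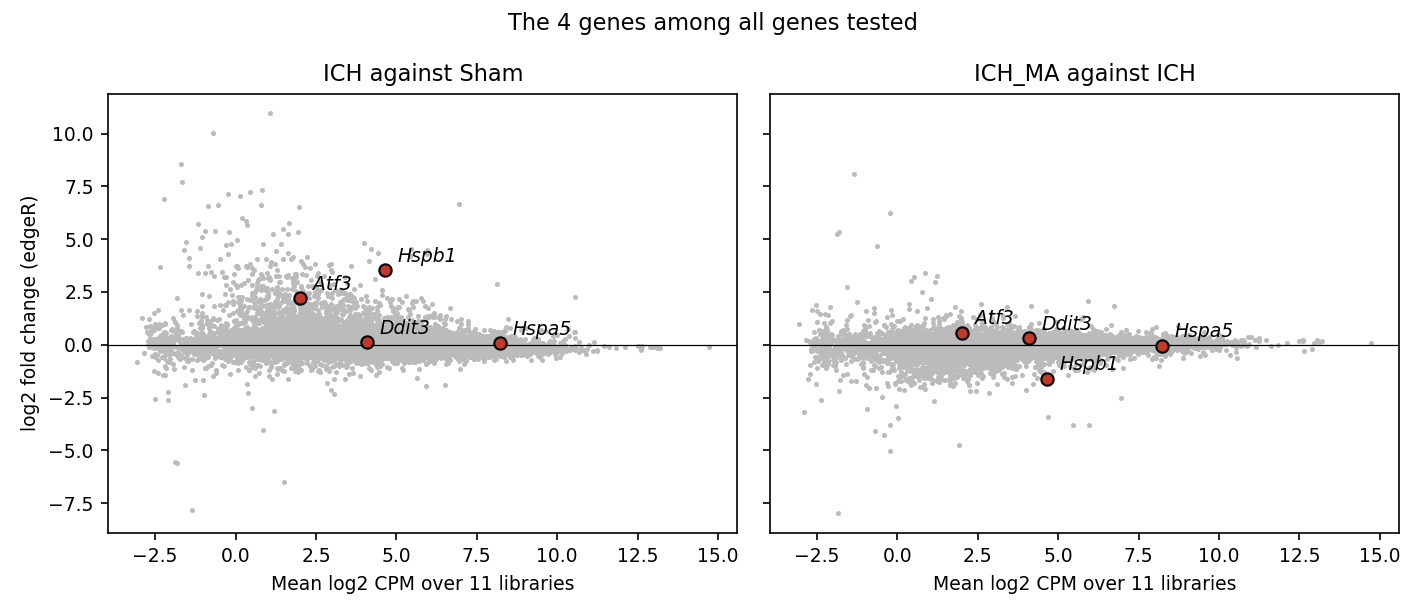
Log2 fold change (edgeR) against mean log2 CPM over 11 libraries for all genes tested (grey), with the 4 genes in red, for ICH against Sham and for ICH_MA against ICH. Hspb1 lies at 3.53 in the left panel and at -1.61 in the right panel, while Hspa5 lies near 0 in both.

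The order of group levels differed among the genes. For Hspb1 the means ran from Sham through ICH_MA to ICH, with both steps from Sham called and the step from ICH_MA to ICH not. For Atf3 and Ddit3 the means ran from Sham through ICH to ICH_MA. In Atf3 the ICH and ICH_MA neighbours did not differ beyond their spread, and in Ddit3 neither Sham and ICH nor ICH and ICH_MA passed, only Sham and ICH_MA. The Hspa5 means of 289 ± 23.5 CPM in Sham, 307 ± 33.1 CPM in ICH and 298 ± 29.1 CPM in ICH_MA were not separated by any test.

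Libraries did not rank alike in Hspb1 and Atf3. Relative to the Sham mean of each gene, ICH replicate 2 stood at 25.2-fold for Hspb1 and 5.04-fold for Atf3, and ICH replicate 1 at 6.65-fold and 5.83-fold. ICH replicate 5 was lowest of the ICH libraries in both, at 2.89-fold and 2.99-fold. ICH_MA replicate 3 was lowest of its group in Hspb1, at 3.19-fold, and highest in Atf3, at 9.06-fold. The biological coefficient of variation that edgeR estimated over all groups was 0.459 for Hspb1 and 0.353 for Atf3. For Hspb1 the spread lay in ICH, where the CPM varied by 103% (coefficient of variation), against 11.1% in Sham and 13.7% in ICH_MA. For Atf3 it was 47.5% in Sham, 31.8% in ICH and 28.0% in ICH_MA. The estimate from edgeR was 0.0967 for Hspa5 and 0.0996 for Ddit3, against a median of 0.112 over all genes tested.

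**Figure D5:**
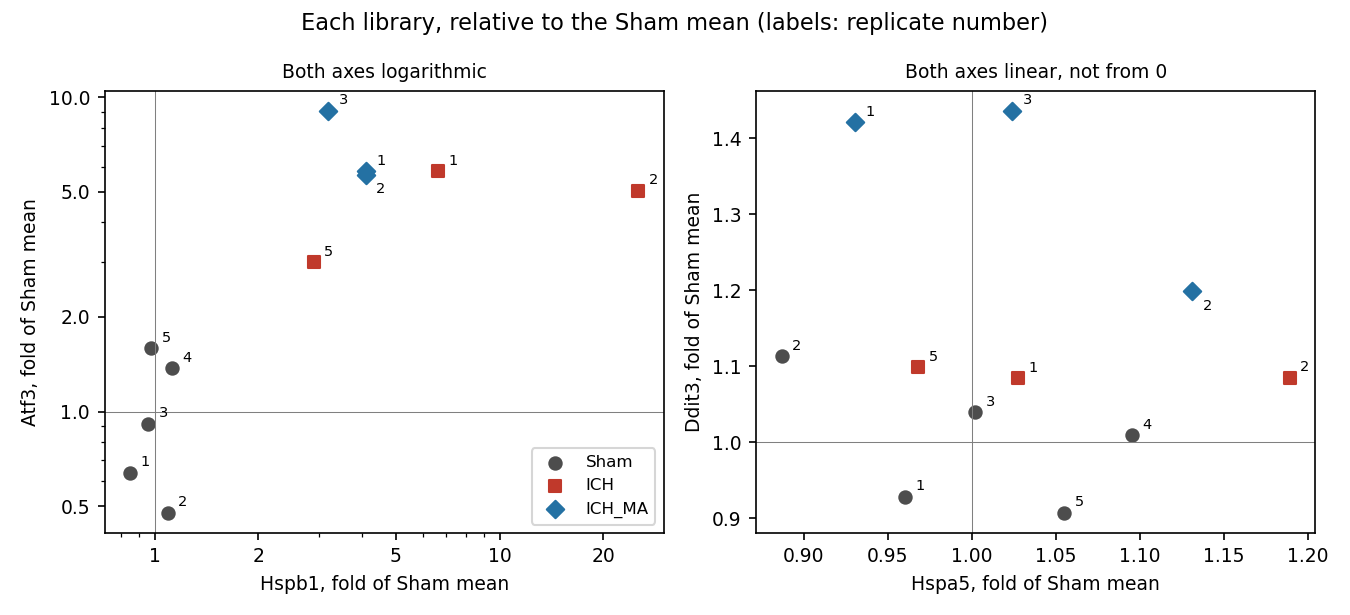
Each of the 11 libraries relative to the Sham mean, as Atf3 against Hspb1 (left, log axes) and Ddit3 against Hspa5 (right, linear axes that do not start at 0); labels are replicate numbers. ICH replicate 2 lies far to the right in Hspb1 at 25.2-fold, and all 3 ICH_MA libraries lie above the others in Ddit3.

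Whether the genes moved by different amounts with hemorrhage was tested on the difference of log2 CPM between 2 genes within each library, for all 6 pairs. Against Hspa5, Hspb1 moved by 2.89 and Atf3 by 2.17 more on the log2 scale, and against Ddit3 they moved by 2.85 and 2.13 more. These values compare group means of log2 CPM. They are not gaps between the fold changes fitted by edgeR above and need not equal them. Each of these 4 pairs was fully separated between 3 ICH and 5 Sham libraries and reached the smallest p that the exact two-sided permutation test can give (p = 0.0357), or 0.0536 after adjustment over the 6 pairs. The adjusted values therefore missed the threshold. With 4 of the 6 pairs at the smallest p, these group sizes allow no lower adjusted value, so the test could not have called these pairs. Hspb1 moved by 0.72 more than Atf3 (exact permutation p = 0.393, adjusted p = 0.471), and without ICH replicate 2 this difference was -0.030. Ddit3 and Hspa5 differed by 0.04 (exact permutation p = 0.786, adjusted p = 0.786).

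The genes with the most similar patterns were sought by the root-mean-square difference, over the 11 libraries, of log2 CPM relative to each gene's own Sham mean. The nearest gene to Hspa5 was ENSRNOG00000018838, at a difference of 0.0663 log2 units, with log2 fold changes of 0.09 between ICH and Sham and -0.12 between ICH_MA and ICH. Nearest to Ddit3 was ENSRNOG00000066128, at 0.083 log2 units. It was at 18.6 CPM in Sham, 19.9 CPM in ICH and 24.1 CPM in ICH_MA. The gene was picked for its likeness to Ddit3 over these libraries, so a shared order of groups follows from the choice. For Hspb1 and Atf3 the nearest genes were further away, at 0.42 and 0.533 log2 units. Hspa5 itself departed from its Sham mean by 0.124 log2 units, Ddit3 by 0.255, Atf3 by 1.96 and Hspb1 by 1.97. The distances were not scaled to these departures, so they do not rank how far each pattern was shared.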

How the data were processed

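RNA was sequenced from rat brain tissue, and all samples carry 1 batch in the labels. The authors deposited raw counts, as whole numbers, for 15094 Ensembl IDs. Bowtie2, RSEM 1.3.1, DESeq2 1.4.5 and build mRatBN7.2 are named per the submitters' processing notes. The sources used here do not say what each tool did, which annotation was used, or whether strand was used and RSEM estimates were rounded. Reads shared by similar gene copies or overlapping genes could be divided between IDs. Each column was assigned by the library name that the labels give its sample.

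The filter filterByExpr (minimum count 10, minimum total 15) kept 14963 genes. After TMM scaling, edgeR 4.0.16 (R 4.3.3) fitted 1 quasi-likelihood model to the 11 libraries, with 1 mean for each group. The design had assumed all labelled libraries. P-values were adjusted over the genes tested, standard errors and intervals came from the same test, and a prior count of 2 was used for log2 CPM. The fit was tested on simulated counts whose spread, for each gene, was common to all groups. That setting does not cover a spread that lies mainly in 1 group, as for Hspb1. Alternatives were DESeq2 1.42.0, limma-voom (limma 3.58.1), RLE size factors, no filter, only the groups compared, the replicate number as a block and leaving out each library. The genes named were the 4 chosen genes and, as the IDs have no symbols, at most 2 genes with the nearest pattern. The members and lists were chosen with earlier results of these data known. The lists of pathway genes (chaperones and degradation of the ER, PERK and ATF4, cytosolic heat shock, ER stress sensors, AP-1 partners) and of cell type markers hold symbols and were not tested, since 0 of 15094 IDs matched a symbol in the reference table of 47357 genes. Upstream sequences came from RefSeq (GRCr8), matched by symbol for 3 of the 4 genes.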

Additional observations from a re-analysis of the deposited data

How the results depend on the processing

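Over the 3 comparisons and 4 genes, 204 fold changes were refitted under alternatives. The direction and the side of the threshold held in 186, the call was lost in 13, gained in 1, and the sign turned in 4. The turned signs were all in Hspa5, which was not called. The lost calls were all in ICH_MA against Sham, 10 of 17 refits for Hspb1 and 3 of 17 for Ddit3. The 186 include genes that were called neither in the main fit nor in the refit. In ICH against Sham the number of the 4 genes called was 2 in every alternative run. In ICH_MA against Sham it was 3, with 2 in limma-voom (Hspb1 lost, adjusted p = 0.209). It was 1 or 2 without any single Sham or ICH_MA library, and stayed at 3 only where an ICH library, not part of this comparison, was left out. In ICH_MA against ICH it was 0, and 0 to 1 with 1 library left out.

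The replicate numbers are shared between groups in the labels, but same-numbered libraries did not deviate together (correlations of -0.156 to 0.0853 over 8 pairs). With the replicate number as a block, 1 of the 4 genes, Atf3, was called in ICH_MA against Sham (log2 fold change 3.02, adjusted p = 0.048). Hspb1 and Ddit3 had log2 fold changes of 1.72 and 0.41 (adjusted p = 0.201 and 0.166) there, with 117 genes called over all in place of 998. In ICH against Sham the block gave 1914 genes in place of 3662, and changed no call among the 4. The cause of these changes was not tested.

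The turned signs of Hspa5 were -0.0028 (ICH against Sham) and 0.044 (ICH_MA against ICH) without ICH replicate 2, 0.021 (ICH_MA against ICH) without ICH_MA replicate 1, and -0.033 (ICH_MA against Sham) without ICH_MA replicate 2. With 1 library left out its log2 fold change ranged from -0.0028 to 0.149 (ICH against Sham), -0.119 to 0.044 (ICH_MA against ICH) and -0.033 to 0.108 (ICH_MA against Sham). Over all genes tested, ICH_MA against Sham gave 1830 genes with DESeq2 and 1541 with the third group left out of the fit, and 348 to 1575 with 1 library left out. ICH against Sham gave 1992 to 4484, and ICH_MA against ICH 0 to 1137. Differences between genes in ICH against Sham, which cannot pass with fewer libraries, ranged with 1 library left out from -0.030 to 1.16 for Hspb1 and Atf3, 2.00 to 3.57 for Hspb1 and Ddit3, 2.13 to 3.55 for Hspb1 and Hspa5, 1.86 to 2.42 for Atf3 and Ddit3, 1.95 to 2.39 for Atf3 and Hspa5, and -0.028 (without ICH replicate 5) to 0.13 for Ddit3 and Hspa5. The last was -0.012 without Sham replicate 5. No Sham library stood apart from the other 4 in any of the genes, and groups of 3 were not checked in this way. Atf3 had the lowest counts of the 4 genes, with 34 in its lowest library. Its coefficient of variation in Sham, 47.5%, was above the 12.1% that counting alone gives.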
